A study of Danio rerio with 8 samples.

Results

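The 4 sibling control libraries of a zebrafish study are described here as a baseline transcriptome of the whole larva at 4 days post fertilization (dpf). They are the libraries labelled as sibling controls, 4 of the 8 in the series, and every one of the 20409 genes in the table was kept. The study compared smh mutant larvae (genotype -/-) with these sibling controls (a mixture of wt and +/- larvae) at the same age, and 1 library of each kind came from each of 4 clutches. The smh allele affects ccdc103, whose product anchors the dynein motors of motile cilia. Mutants were recognised by a downward curled tail, so the controls are the larvae without that curl, and the proportion of heterozygotes among them is not known. No larva received a treatment. Each library was made from total RNA of 30 pooled whole larvae. Pooling averages over individuals, and in a whole-larva extract fewer cells of a type and less RNA per cell cannot be told apart. Within the controls the clutch, the pool and the library are one and the same, so no difference between clutches was tested, no p-value is given, and no mutant library was tested against a control.

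At this age a zebrafish larva swims freely, has begun to use its gut and still carries some yolk. The trunk is mostly fast (white) muscle around the notochord, with a thin superficial layer of slow (red) muscle. Liver, exocrine pancreas and intestine are functional, and the retina has layers of cones and rods with a lens in front of them. Motile cilia are confined to a few cell types, among them cells lining the brain ventricles, the pronephric tubules, the nose and the central canal.

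The unit is taken to be log2 CPM, where CPM scales the reads of a gene by the total of its library, and the values had been made nearly equal in distribution between the libraries by the authors. The highest value was 14.04 log2 CPM in each of the 4 control libraries and the totals lay between 997999 and 998006 CPM. At the top of the table a value therefore stands for a rank, and a difference between libraries is a change of rank. CPM is not corrected for the length of the transcript, so the shares below are shares of the read-based total, and they do not compare the number of transcripts between genes. Sequencing depth is unknown. A mean of at least 5 CPM over the 4 controls was found for 15353 genes, 3811 reached 50 CPM and 92 reached 1000 CPM. The median gene of the table had 14.0 CPM.

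A small number of genes took much of the total. The gene that ranked first in 4 of 4 libraries, actc1b, an actin gene used by striated muscle, held 1.68% of the total CPM. The 10 genes of highest mean held 7.88% ± 0.17 (SD, n = 4), the 100 highest held 25.5% ± 0.03, and the 1000 highest held 52.8% ± 0.13. The small SDs of these shares follow in part from the nearly equal distributions. Of the 100 genes, 82 were among the 100 highest in each of the 4 libraries, and 117 genes were among them in at least 1. The 100 genes held 19 ribosomal protein genes and 18 genes of the fast muscle list. They also held 11 cytoskeleton and reference genes, 7 genes of the epidermis list, 7 translation factors and 5 liver genes. Another 16 were in no list, among them the mitochondrial carrier genes slc25a5 and slc25a3b, and 6 of the 100 had clone or predicted names.

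Ranks 2 to 4 went to the same 3 genes in every control library, in different orders. The elongation factor gene eef1a1l1 stood at 13.06, 13.46, 13.30 and 13.46 log2 CPM in clutches 1 to 4. The fast myosin heavy chain gene myhz1.1 had 13.30, 13.30, 13.46 and 13.06 log2 CPM. The keratin gene krt4 of the outer epidermis had 13.46, 13.06, 13.06 and 13.30 log2 CPM, and was second in clutch 1. The 3 genes exchanged the same 3 values among themselves, so their order was not stable across clutches. Further down the 20 highest came the fast muscle genes tpma (tropomyosin), myhz2, pvalb1 and pvalb2 (parvalbumins, calcium buffers), mylpfa and mylz3 (myosin light chains), atp2a1 (the calcium pump of the sarcoplasmic reticulum), tnnc2 (troponin C) and ckmb (creatine kinase). The list of 20 also held actb2, the chaperone gene hspa8, the elongation factor gene eef2b, and the lipoprotein genes apoa1b and apoa1a. LOC110438040, which the table does not name further, ranked between 9 and 14. The largest move of rank among the 10 highest genes was that of eef2b, which was 24th in clutch 1 and between 6th and 11th in the other libraries, with 11.69, 12.52, 12.52 and 12.22 log2 CPM. Myosin heavy chain and actin genes are near-identical copies, so the division of reads among them is uncertain.

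**Figure D1:**
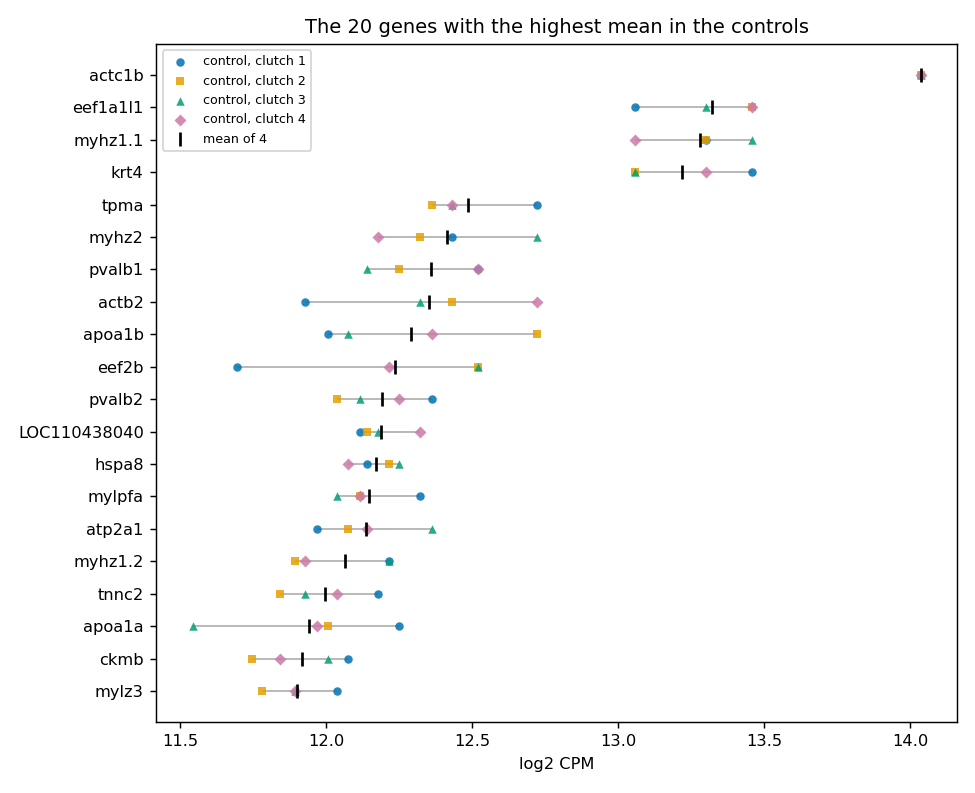
The 20 genes with the highest mean in the controls, with 1 point per control library (clutches 1 to 4), a black bar for the mean of the 4, and log2 CPM on the horizontal axis. The value of actc1b is 14.04 in all 4 libraries, and eef1a1l1, myhz1.1 and krt4 share the same 3 values in different orders.

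To compare organs through their marker genes, the summed CPM of 35 gene lists was taken as a share of each library's total. Such a sum depends on which genes a list holds and on how many, so it is not the share of an organ in the RNA. The lists together held 1415 measured genes and 39.1% ± 0.37 of the total (SD, n = 4). Fast skeletal muscle came first with 9.01%, 7.82%, 8.66% and 8.03% in clutches 1 to 4, a mean of 8.38% ± 0.55 over 65 genes. Ribosomal protein genes followed with 5.85%, 5.48%, 5.41% and 5.20%, a mean of 5.49% ± 0.27 over 83 genes. Muscle stood above the ribosome and the ribosome above the next list in 4 of 4 libraries, with ranges that did not overlap. The next lists did not keep their order. Cytoskeleton and reference genes held 3.21% ± 0.10 and translation factors 3.14% ± 0.22, and the higher of the pair differed between libraries, 2 against 2.

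Among the lists of organs other than muscle, those of the epidermis and the liver held the largest shares. Keratin and other epidermis genes held 3.01%, 2.42%, 2.49% and 2.57% of the total, and krt4 alone made up a large part of that, since the list fell to 1.66% without it. Behind krt4 came krt5 with a mean of 11.27 log2 CPM and cyt1, a type I keratin, with 11.23. Liver and plasma protein genes held 2.24%, 2.48%, 2.23% and 2.24%. They were led by apoa1b with 12.01, 12.72, 12.07 and 12.36 log2 CPM, by fetub (a fetuin of the blood plasma) with a mean of 11.70, and by apobb.1 (apolipoprotein B) with 11.58. The 3 highest genes made up 50.5% of the liver list, which fell to 1.78% of the total without apoa1b. That is below the full connective tissue list at 1.91%, but the latter held 1.54% without its own highest gene. With each list short of its highest gene, the mean of the liver list was above those of epidermis and connective tissue. The related genes apoa1a and apoba were counted in the yolk list, so the shares of the liver and yolk lists do not separate these tissues. Epidermis was above liver in 3 of 4 libraries and their ranges overlapped. Genes of fibroblasts and connective tissue held 1.91% ± 0.12, and collagen I led them, with col1a1a at 11.54, 12.18, 11.84 and 11.74 log2 CPM. The actinodin genes and2 and and1, of the fin fold, had means of 10.48 and 9.57 log2 CPM.

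The heart list shows how 1 gene can carry a list. It held 1.90% ± 0.01 of the total, of which actc1b was 88.5%, and 0.220% without that gene. Despite the name cardiac actin, actc1b is known as a main actin of larval trunk muscle in zebrafish. The next heart list genes were actc1a with a mean of 9.96 log2 CPM and desma with 8.10, which skeletal muscle also uses. Slow muscle genes held 0.276% ± 0.026, led by the slow myosin heavy chain gene smyhc1 at 10.29, 10.10, 10.20 and 10.05 log2 CPM. That sum was far below the fast muscle share in every library.

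**Figure D2:**
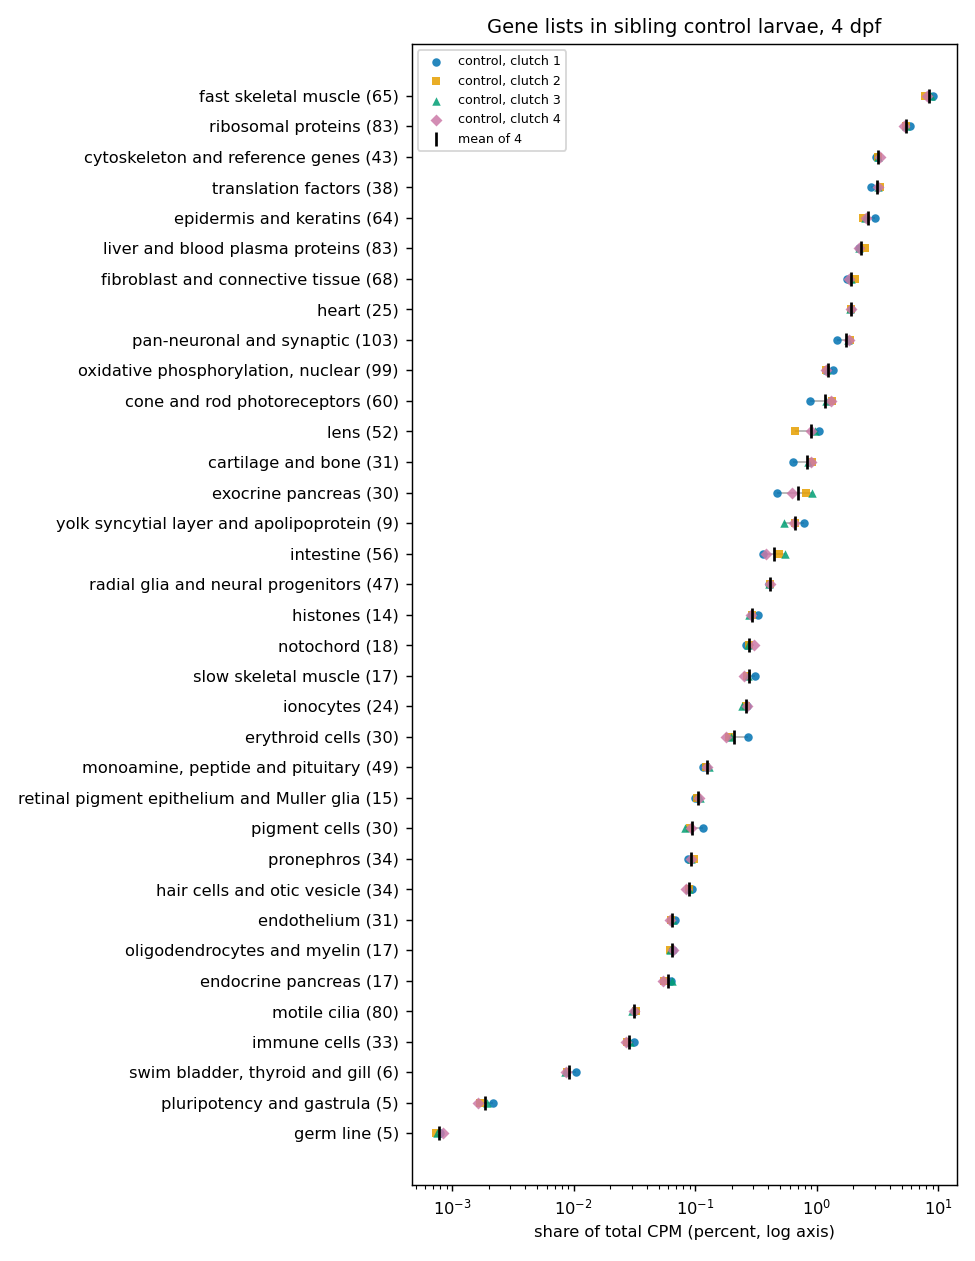
Share of the total CPM held by each of 35 gene lists (percent, log axis), with the number of measured genes in parentheses, 1 point per control library and a black bar for the mean of the 4. Fast muscle is at the top with 8.38% and germ line genes at the bottom. The points of exocrine pancreas lie farthest apart, with the highest share 1.96 times the lowest. Lens (1.58 times), intestine (1.53), erythroid cells (1.53) and photoreceptors (1.50) follow.

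The nervous system and the eye made up the next group. Pan-neuronal and synaptic genes held 1.47%, 1.87%, 1.80% and 1.86%, with clutch 1 below the others. The tubulin gene tuba1c had 9.58, 10.21, 10.03 and 10.30 log2 CPM, and elavl3, an RNA-binding protein of young neurons, had 9.23, 9.70, 9.67 and 9.81. Cone and rod photoreceptor genes held 0.886%, 1.33%, 1.20% and 1.31%. The rod opsin gene rho had 9.95, 11.66, 11.47 and 11.57 log2 CPM and the UV cone opsin gene opn1sw1 had 10.88, 11.27, 11.16 and 11.27. rho was thus above opn1sw1 in clutches 2 to 4 and below it in clutch 1. The green cone opsin gene opn1mw1 and the red cone opsin gene opn1lw2 had means of 9.72 and 9.71 log2 CPM, and the blue cone opsin gene opn1sw2 had 8.76. Cone transducin gnat2 had a mean of 9.14 log2 CPM. The rod transducin gene gnat1 had 6.44, 6.30, 6.55 and 6.44 log2 CPM, with no low value in clutch 1 where rho was low.

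Lens genes held 1.05%, 0.667%, 0.968% and 0.890% of the total and were led by crystallins, the structural proteins that fill the lens fibres. crygn2 led with 9.63, 8.80, 9.45 and 9.33 log2 CPM, followed by cryba4 with 9.48, 8.79, 9.42 and 9.12. Both were lowest in clutch 2. Retinal pigment epithelium and Muller glia genes held 0.105% ± 0.004, led by the glutamine synthetase genes glula and glulb, which other glia also use. Pigment cell genes held 0.0950% ± 0.014. Their highest members were paics and gmps, which make purines in all cells, and the melanin gene tyrp1b had a mean of 5.94 log2 CPM.

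Skeletal tissues were dominated by collagens. Cartilage and bone genes held 0.642%, 0.915%, 0.848% and 0.903%, led by collagen II, with col2a1a at 10.51, 11.47, 11.27 and 11.37 log2 CPM. Clutch 1 had the lowest value of this gene, and of col11a2 with 8.67, 9.64, 9.58 and 9.76. The largest clutch 1 gap among the collagens was that of col9a1b, with 6.39, 8.36, 8.02 and 8.25 log2 CPM. col9a1a, the duplicate gene for the same collagen IX chain, had 7.82, 7.83, 7.83 and 7.75 log2 CPM and did not share that gap. Notochord genes held 0.280% ± 0.018 and were led by matn1, whose product also lies in cartilage, with a mean of 8.92 log2 CPM. The collagen IX genes col9a1a, col9a2 and col9a3 were counted in the notochord list and col9a1b in the cartilage list. The shares of these lists therefore do not separate the tissues. The notochord gene cmn (calymmin) had 6.73, 7.90, 8.02 and 8.14 log2 CPM.

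The lists of the digestive organs were uneven between clutches. Exocrine pancreas genes held 0.469%, 0.815%, 0.920% and 0.627% of the total. The carboxypeptidase gene cpa5 had 9.28, 10.16, 10.21 and 9.74 log2 CPM, the trypsin gene prss59.2 had 9.27, 9.99, 10.10 and 9.69, and the chymotrypsin gene ctrb1 had 8.81, 9.81, 9.91 and 9.37. All 3 genes had the same order of clutches, with clutch 3 highest and clutch 1 lowest. Intestine genes held 0.361%, 0.489%, 0.554% and 0.382%. Among them the chitinase gene chia.2 had 7.72, 9.11, 9.92 and 8.55 log2 CPM, vil1 (villin, of the brush border) had 7.94, 8.85, 8.73 and 8.48, and fabp2 (a fatty acid carrier of enterocytes) had 8.18, 8.63, 8.85 and 8.33. In these 3 genes too clutch 1 was lowest. Of the 48 intestine genes of at least 5 CPM, 31 were lowest in clutch 1 and 6 highest, against 33.3% and 44.2% of all genes tested. The most abundant member, apoa4b.1, made up 12.4% of the list. Without it the list held 0.391% ± 0.091, against 0.446% ± 0.091 with it. Endocrine pancreas genes held 0.0595% ± 0.0049. The insulin gene ins had 4.25, 3.88, 3.94 and 3.85 log2 CPM and did not follow the exocrine genes. The higher members of that list, neurod1, scg3 and isl1, are also used by neurons.

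Genes of the yolk syncytial layer and its apolipoproteins held 0.659% ± 0.10, led by apoa1a with 12.25, 12.01, 11.54 and 11.97 log2 CPM and by apoeb with a mean of 9.99. The vitellogenins, which are yolk precursors made in the adult female liver, were low. vtg7 had 3.80, 2.00, 2.05 and 2.37 log2 CPM and vtg1 had 0.29, -0.33, -0.49 and -0.54, both highest in clutch 1. Erythroid genes held 0.274%, 0.191%, 0.196% and 0.179%. The embryonic globin genes led, with hbae3 at 9.62, 8.94, 8.95 and 8.83 log2 CPM and hbbe1.1 at 9.17, 8.53, 8.54 and 8.58. Clutch 1 was highest in both. The globin genes are close copies of one another, so reads may be divided among them with error.

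The remaining cell types each held under 0.5% of the total. Monoamine, peptide and pituitary genes held 0.124% ± 0.006, led by cpe, an enzyme that processes peptide hormones, with a mean of 8.46 log2 CPM. Radial glia and neural progenitor genes held 0.409% ± 0.004, histone genes 0.296% ± 0.021 and ionocyte genes 0.261% ± 0.011. The sodium pump gene atp1a1a.1, which other cells also use, led the ionocyte list with 9.04, 9.40, 9.20 and 9.40 log2 CPM, and rhbg, an ammonia channel of the skin, had a mean of 8.81. Pronephros genes held 0.0924% ± 0.0040, hair cell and otic vesicle genes 0.0892% ± 0.0042, endothelial genes 0.0648% ± 0.0024 and myelin genes 0.0640% ± 0.0018. The otolith matrix gene stm had 8.72, 8.67, 8.53 and 8.40 log2 CPM, and made up much of the otic share, which was 0.0507% without it. The endothelial receptor gene kdrl had 5.25, 5.23, 5.36 and 5.34 log2 CPM, and the myelin gene mbpb had 6.55, 6.42, 6.45 and 6.48. Each of these sets of 4 values spanned less than 0.5 log2 units. Immune cell genes held 0.0287% ± 0.0020, with the neutrophil peroxidase gene mpx at 4.00, 4.21, 4.41 and 3.88 log2 CPM. At the bottom were 6 measured genes of swim bladder, thyroid and gill with 0.00910% ± 0.00089, genes of the gastrula with 0.00185% and of the germ line with 0.000786%. Of the 27 gastrula entries written 5 were found in the table, and of the 20 germ line entries 5, so these sums leave out most of both lists. The germ cell genes ddx4 (vasa) and piwil1 had means of 0.68 and 0.69 log2 CPM.

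Genes of motile cilia, the structures that the smh mutation concerns, were a very small part of the control transcriptome. The list held 0.0317%, 0.0327%, 0.0304% and 0.0313% of the total from 80 measured genes, out of 98 written entries. Of these, 17 had a mean of at least 5 CPM, against 15353 of the 20409 genes in the table. spag1a had the highest level, with 4.59, 4.77, 4.34 and 4.67 log2 CPM, followed by the ciliary transcription factor genes rfx2 with a mean of 4.20 and rfx3 with 4.14. foxj1a, the main switch of the motile cilia program, had 2.31, 2.46, 2.31 and 2.16 log2 CPM, and foxj1b had 2.75, 2.94, 2.65 and 2.71. The axonemal dynein heavy chain gene dnah5 had 2.10, 2.70, 2.42 and 2.68. ccdc103 itself (0.64, 1.00, 0.67 and 0.40 log2 CPM) was low, though not among the genes with a mean under 0. In all, 7 of the 80 genes had a mean under 0 log2 CPM, where the spread between libraries was wide, against 1.75% of all genes. No motile cilia gene of at least 5 CPM reached an SD of 0.5 log2 units. Only 3.75% of all genes tested did, so its absence among 17 genes does not set this list apart.

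The spread between clutches was small for most genes. Over the 15353 genes of at least 5 CPM the median SD over the 4 libraries was 0.19 log2 units, with a 10th percentile of 0.084 and a 90th of 0.373. It was larger at low levels, with a median SD of 0.53 for genes under 1 CPM, 0.27 for genes of 2 to 5 CPM, and 0.14 for genes of 500 CPM and more. The steadiest genes with a mean of at least 50 CPM, apart from actc1b, were birc2, an inhibitor of apoptosis, at 6.79, 6.81, 6.81 and 6.80 log2 CPM, and rab11ba, a GTPase of recycling endosomes, at 5.87, 5.89, 5.88 and 5.87. tmem30aa and gtpbp1 were as steady, with SDs of 0.01 and 0.02 log2 units. An SD of at least 0.5 log2 units was reached by 576 genes, which is 3.75% of those tested. Ribosomal protein genes had a median SD of 0.12 and fast muscle genes 0.17, with 0 of 81 and 0 of 64 genes at 0.5 or more. Lens genes had a median SD of 0.43 with 13 of 47 genes at 0.5 or more, exocrine pancreas genes 0.43 with 6 of 24, intestine genes 0.37 with 15 of 48, and photoreceptor genes 0.24 with 8 of 48. In each of these 4 lists the share of such genes was above that of the table as a whole. The counts rested much on single libraries. Without clutch 1, 202 genes reached 0.5 in all, with 4 in the lens list, 3 in the exocrine pancreas list, 8 in the intestine list and 2 in the photoreceptor list, and without clutch 4 the total was 916. The lens list held 2 such genes without clutch 2, 23 without clutch 3 and 25 without clutch 4. The exocrine pancreas list held 12 without clutch 2, 3 without clutch 3 and 12 without clutch 4, and the photoreceptor list held 15 without clutch 4. The median SD of lens genes was 0.261 without clutch 2, and that of ribosomal protein genes was 0.0654 without clutch 1.

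**Figure D3:**
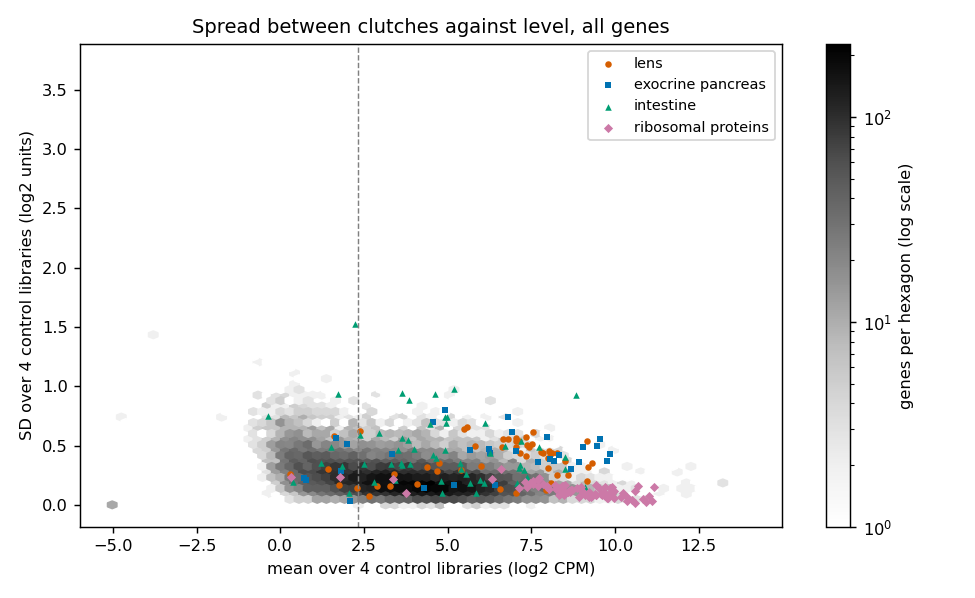
SD over the 4 control libraries (log2 units) against the mean (log2 CPM) for all 20409 genes, as hexagons shaded by the number of genes on a log scale, with the members of 4 lists as coloured points and a dashed line at 5 CPM. Ribosomal protein genes lie low, with a median SD of 0.12 against 0.14 for all genes of 500 CPM and more. Many lens, exocrine pancreas and intestine genes lie above the bulk of genes of the same level.

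The widest spread of a named gene was in the pronephros list. lrp2b, a megalin-type endocytic receptor, had 0.92, 3.48, 3.50 and 1.27 log2 CPM in the mutants of clutches 1 to 4 and 0.33, 3.79, 4.21 and 2.57 in the controls. Clutch 1 was lowest and clutch 3 highest in both genotypes, and the SD of 1.74 over the controls was the largest among named genes of at least 5 CPM. In the controls fabp6 of the intestine list, an ileal bile acid carrier, had 4.05, 5.84, 6.14 and 4.72 log2 CPM. The cholesterol uptake gene npc1l1 had 3.32, 4.97, 5.53 and 4.64, and the peptide transporter gene slc15a1b had 3.99, 5.49, 5.39 and 4.94. In these genes clutches 2 and 3 were the highest, clutch 4 was next and clutch 1 was lowest. cyp3a65, a detoxifying enzyme gene of liver and intestine, had the same order with 6.42, 8.20, 8.12 and 7.29 log2 CPM.

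Clock genes and immediate early genes were also variable. Both lists were chosen after these values had been seen. The circadian clock list had a median SD of 0.46 log2 units, against 0.19 for all genes tested. Of its 39 genes 17 reached 0.5, against 3.75% of all genes tested. The count was also 17 without clutch 1, and 11 without clutch 3. nr1d1, a repressor in the clock loop, had 7.78, 8.89, 7.42 and 8.70 log2 CPM in the mutants of clutches 1 to 4 and 8.02, 9.28, 7.37 and 9.27 in the controls. cry1bb, a cryptochrome gene, had 5.10, 2.95, 6.06 and 4.31 log2 CPM in the mutants and 5.24, 3.14, 5.95 and 4.53 in the controls. In both genotypes the order of the clutches was opposite in these 2 genes, since clutch 2 was highest in nr1d1 and lowest in cry1bb, and clutch 3 was lowest in nr1d1 and highest in cry1bb. In the controls per1b, a period gene, had 7.48, 8.44, 6.95 and 8.36 log2 CPM, and dbpb, a clock output factor, had 4.79, 6.55, 4.56 and 6.26. These followed nr1d1, while cry1ba with 8.35, 7.55, 9.25 and 8.04 followed cry1bb. The light-inducible genes did not all go with either. cry5 (a photolyase-like gene) had 6.02, 4.06, 4.25 and 5.21 log2 CPM and per2 had 8.49, 8.32, 7.80 and 9.28. clockb, by contrast, had 6.40, 6.44, 6.54 and 6.44 log2 CPM and hardly moved. The hour of collection of each clutch is not given in the labels, and its part in these values was not tested.

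**Figure D4:**
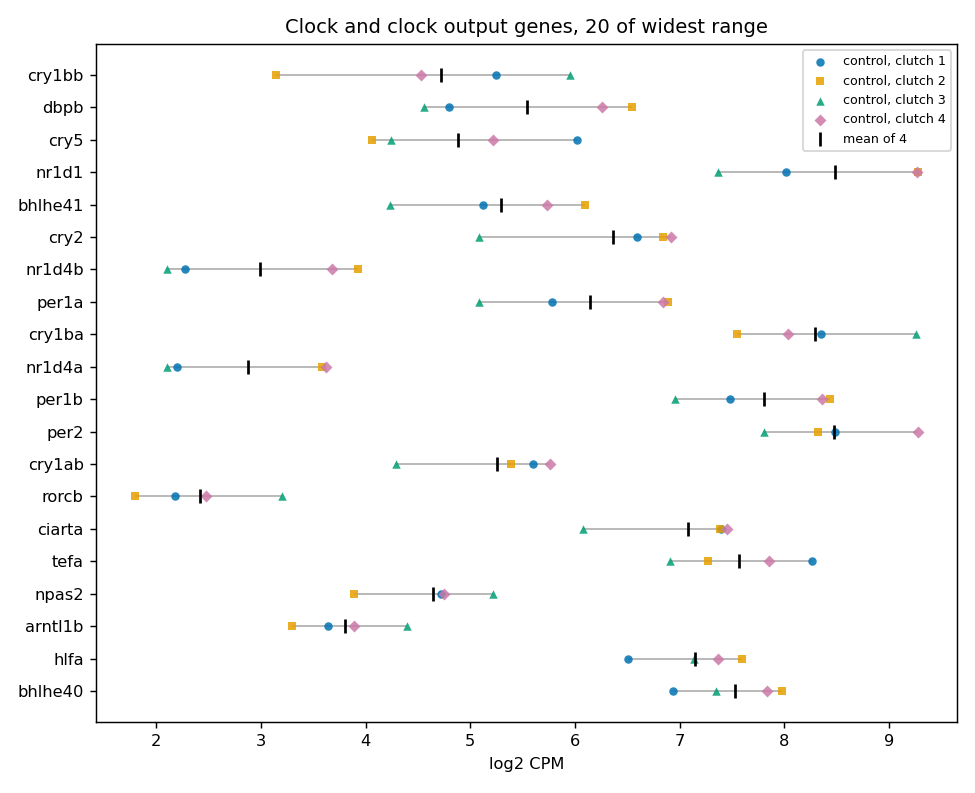
The 20 clock and clock output genes with the widest range in the controls, with 1 point per control library, a black bar for the mean of the 4, and log2 CPM on the horizontal axis. nr1d1, dbpb, per1a and per1b are high in clutches 2 and 4 and low in clutch 3, and cry1bb and cry1ba are highest in clutch 3 and lowest in clutch 2.

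Immediate early genes, which rise within minutes of neuronal activity or handling, had a median SD of 0.55 log2 units, against 0.19 for all genes tested. At 0.5 or more were 11 of 22 genes, against 3.75% of all genes tested. The count was 8 without clutch 1 and 7 without clutch 3. fosab had 5.86, 6.05, 3.97 and 4.61 log2 CPM in the mutants of clutches 1 to 4 and 5.70, 6.73, 4.36 and 6.99 in the controls. npas4a, a factor induced by neuronal activity, had 4.30, 5.40, 4.24 and 4.40 log2 CPM in the mutants and 4.40, 6.15, 4.72 and 6.87 in the controls. Clutch 2 was the highest among the mutants and clutch 4 among the controls in both genes. egr4 had 3.71, 4.74, 2.44 and 4.88 log2 CPM in the controls, again with clutch 4 highest and clutch 2 next. Not every member was variable, since jun had 6.42, 6.44, 6.42 and 6.53 log2 CPM in the controls.

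The lens genes varied in another way, with clutch 2 lowest in 36 of 47 genes and clutch 1 highest in 34 of 47, against 24.8% and 44.2% of all genes tested. Against the mean of the other 3 controls, the median lens gene was 0.73 log2 units lower in clutch 2 and 0.57 higher in clutch 1, while the medians of clutches 3 and 4 were 0.18 and -0.01. At least 1 log2 unit lower in clutch 2 were 5 of the 47 lens genes, against 0.124% of all genes tested. The gamma-M crystallin gene crygm2d20 had 7.95, 7.60, 7.79 and 7.69 log2 CPM in the mutants of clutches 1 to 4 and 8.25, 6.77, 7.68 and 7.48 in the controls. The lens filament gene bfsp2 had 5.87, 5.66, 5.79 and 5.79 log2 CPM in the mutants and 6.15, 4.65, 5.74 and 5.47 in the controls. Clutch 2 was lowest in both genotypes, by less in the mutants. The beta crystallin gene crybb1 ran the other way, with 8.40, 9.41, 9.29 and 9.61 log2 CPM in the controls and its lowest value in clutch 1. The gamma-M crystallins are near-identical copies, and their values are not independent of one another.

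One library stood apart from the other 3. Across the 15353 genes the control of clutch 1 correlated with the controls of clutches 2 to 4 at a Pearson r of 0.958, 0.962 and 0.966, while the pairs among clutches 2, 3 and 4 had 0.986 to 0.990. The genes of all pairs share the authors' normalization and the same table, and genes are not independent replicates. Against the mean of the other 3 controls, 326 genes (2.12%) were at least 1 log2 unit lower in clutch 1 and 22 (0.143%) were as much higher. For clutch 2 these counts were 19 (0.124%) and 23 (0.15%), for clutch 3 they were 46 (0.3%) and 34 (0.221%), and for clutch 4 they were 2 (0.013%) and 23 (0.15%). The median of all genes was 0.07 log2 units higher in clutch 1. Without clutch 1 the median SD of all genes was 0.116 log2 units in place of 0.190.

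What was low in clutch 1 was uneven across the gene lists. Of the 326 genes, 286 were in no fixed list, as were 14157 of the 15353 genes tested. Genes at least 1 log2 unit lower numbered 9 of 48 in the intestine list, 3 of 24 in the exocrine pancreas list, 4 of 48 in the photoreceptor list, 4 of 26 in the pronephros list and 7 of 101 in the neuronal list, all above the 2.12% of all genes. The median differences of these lists from the other 3 controls were -0.56, -0.61, -0.35, -0.38 and -0.22 log2 units. Cartilage and bone, with 2 of 28 genes at least 1 log2 unit lower, and radial glia, with 2 of 42, were also above 2.12%. So were several short lists with 1 such gene. In the ribosomal, fast muscle, slow muscle and oxidative phosphorylation lists 0 of 81, 0 of 64, 0 of 17 and 0 of 94 genes were that much lower. Only 2.12% of all genes were, so counts of 0 in lists of this size do not set them apart. The medians of these 4 lists were 0.18, 0.23, 0.29 and 0.34 log2 units above the other controls, against 0.07 for all genes. Nuclear genes of oxidative phosphorylation, the complexes of the mitochondrial inner membrane, held 1.24% ± 0.08 of the total (SD, n = 4), and 81 of 94 were highest in clutch 1, against 44.2% of all genes. The 2 with the highest values did not follow, since atp5fa1 had 10.01, 10.48, 10.40 and 10.46 log2 CPM and atp5f1b had 9.91, 10.25, 10.22 and 10.26.

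Single genes show the depth of the clutch 1 gap. slc1a2b, the glutamate transporter of astroglia, had 8.41, 9.78, 9.60 and 9.75 log2 CPM. syn2b, a synaptic vesicle protein gene, had 5.45, 6.94, 6.89 and 6.99, and camk2b, a calcium-dependent kinase gene, had 0.91, 3.13, 3.11 and 3.03. In each of these the other 3 controls lay close together. The radial glia and neural progenitor list, which slc1a2b leads, did not share its gap as a whole. Its median difference in clutch 1 was 0.23 log2 units. Of its 42 genes of at least 5 CPM, 10 were lowest in clutch 1 and 24 highest. The intestinal disaccharidase gene si had 6.67, 8.75, 8.57 and 8.03 log2 CPM, and the nuclear receptor gene nr5a5 had 1.09, 2.84, 3.66 and 2.54. The highest positive differences of clutch 1 were those of vtg7 and cry5, whose values stand above, followed by the cytochrome P450 genes cyp2aa3 and cyp2aa9 and by wdr76. Next came the one-carbon metabolism gene mthfd1l with 7.06, 5.98, 5.20 and 6.09 log2 CPM. Some of these differences owe much to a low value in another clutch, since cyp2aa9 had 3.66, 2.90, 1.13 and 2.92 log2 CPM. Only 2 of the 15353 genes tested were higher in clutch 1 than in every other control by 1 log2 unit, while 177 were lower by as much.

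Among the lists added after the values had been seen, the gap was widest in the presynaptic active zone. These lists can share genes with the fixed lists. Genes of the presynaptic active zone, where vesicles are released, had a median difference of -0.92 log2 units in clutch 1, with 8 of 19 genes at least 1 log2 unit lower and 18 of 19 lowest there, against 2.12% and 33.3% of all genes tested. Their median SD was 0.46 log2 units, with 8 of 19 genes at 0.5 or more, against 3.75% of all genes tested, and 0 without clutch 1. bsnb (bassoon) had 5.98, 7.67, 7.40 and 7.60 log2 CPM and pcloa (piccolo) had 6.15, 7.51, 7.26 and 7.55. stxbp1b, of the same list, had 6.15, 6.30, 6.21 and 6.34. Potassium channel genes had a median difference of -0.45, with 8 of 47 at least 1 log2 unit lower. Voltage-gated calcium channel genes had one of -0.49 with 2 of 15 that low, against the same 2.12% of all genes. A list of genes with very large coding regions, of many tissues, moved with them, with a median difference of -0.51 log2 units, 11 of 71 genes at least 1 log2 unit lower and 56 of 71 lowest in clutch 1, against the same 2.12% and 33.3%. In that list dync1h1, the heavy chain of cytoplasmic dynein, had 7.57, 8.66, 8.51 and 8.30 log2 CPM. The muscle giant ttn.2 (titin) had 9.43, 9.61, 10.13 and 10.20. It was lowest in clutch 1, with a smaller gap than dync1h1 and about that of the median gene of the list. The muscle giant neb (nebulin), with 9.79, 9.66, 10.02 and 9.95, was lowest in clutch 2. The part of transcript length, RNA quality or stage in the values of clutch 1 was not tested.

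**Figure D5:**
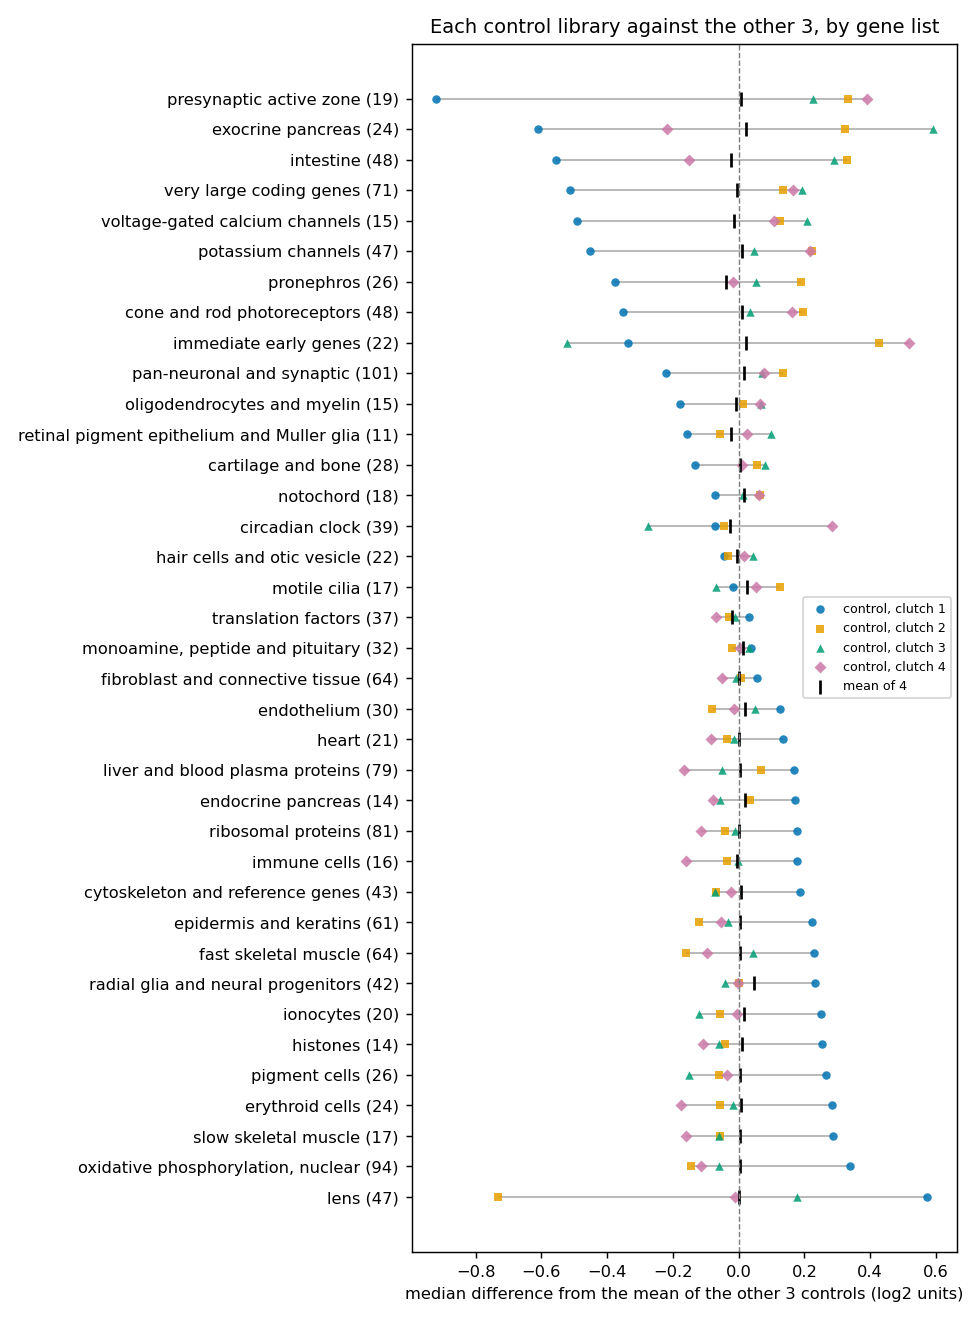
Median difference of each control library from the mean of the other 3 controls (log2 units), by gene list, with 1 point per clutch, the number of genes of at least 5 CPM in parentheses and a black bar for the mean of the 4. Clutch 1 is at the left for the presynaptic active zone (-0.92), exocrine pancreas (-0.61) and intestine (-0.56) and at the right for oxidative phosphorylation (0.34), and the lens has clutch 2 at -0.73 and clutch 1 at 0.57.

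The mutant library of clutch 1 shared part of this difference. Compared with the other 3 mutants, 128 genes (0.834%) were at least 1 log2 unit lower in it, and 75 of these were also among the 326 genes of its sibling control. That is 58.6% of the mutant list and 23.0% of the control list. All 326 genes were below the mean of the other 3 mutants in the mutants of clutch 1, against 46.7% of all genes tested. The mutants and the controls of clutch 1 share their parents, so this overlap compares 2 pools of one clutch. rho is an example, with 9.88, 11.42, 11.37 and 11.33 log2 CPM in the mutants of clutches 1 to 4, again lowest in clutch 1.

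At the other end of the table, few of the listed genes were near the floor. Genes absent from the table are not counted here, and whether low genes were removed before the values were deposited is not known. The lowest value, -5.02 log2 CPM (0.0308 CPM), was listed for 24 to 27 genes in each control library. A mean under 0 log2 CPM over the 4 controls was found for 357 genes (1.75%), and together they held 0.0277% of the total CPM. Of these 357, 225 (63.0%) had a clone or predicted name, against 21.0% of all genes in the table. A value under 0 in all 4 controls was found for 108 genes, and in at least 1 control for 941. Genes of low mean were also the least repeatable, with a median SD of 0.53 log2 units. hpcal1, a neuronal calcium sensor gene, had 1.43, -2.18, -2.62 and -1.25 log2 CPM, and the chemokine gene ccl27a had -2.75, -1.03, -1.79 and -1.25.

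Some genes at the lowest value belong to families that are otherwise present. 11 genes were listed at it in all 4 controls, and 8 of these were at the lowest value of their library in each of the 8 libraries. scg5, a secretogranin-family chaperone of neuroendocrine cells, was at -5.02 log2 CPM in each control, while the secretogranin genes scg2b (7.11, 7.45, 7.52 and 7.29 log2 CPM) and scg3 (6.95, 6.62, 6.64 and 6.67) were well measured. The cytochrome P450 genes cyp2p7, cyp2p8, cyp2p9 and cyp2p10 were likewise listed at -5.02 log2 CPM in every control, whereas their neighbour in name, cyp2p6, had 3.86, 3.98, 3.99 and 3.80. The cyp2p genes are similar copies. Whether a value at the floor stands for no expression or for an estimate that failed was not tested.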

How the data were processed

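Total RNA of pooled whole larvae was sequenced on a BGI DNBSEQ instrument, and the reads were filtered with SOAPnuke 1.5.2, per the labels' protocols. Per the submitters' processing notes, GRCz11, HISAT2 2.0.4, Bowtie2, RSEM and limma were used, with no role or order given. The authors deposited normalized values that are taken here as log2 CPM: the unit is inferred from the numbers, which give totals of 997999 to 998006 after conversion to the linear scale. The deposited log2 values have nearly equal distributions over the 8 libraries, apart from the lowest values, which alone brings the totals close together. No counts were used, so neither the depth nor its effect on precision is known. The number of per-sample columns not mapped to a sample is 0.

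Symbols were joined by gene ID from the authors' second table, whose statistics were not used. 33 list members that did not match by symbol were found through the RefSeq symbol of their gene ID, and RefSeq held 19636 of the 20409 gene IDs. 17 symbols occur for more than 1 gene ID. Log2 values were summarised as mean and SD over the 4 controls, and linear CPM as shares. Spread was summarised over genes with a mean of at least 5 CPM. A library was set against the mean of the other 3, and differences of at least 1 log2 unit (2-fold) were counted. Python 3.11.15, numpy 2.4.6, pandas 2.3.3 and matplotlib 3.10.9 were used. The counting step was tested on simulated data of 20409 genes with an SD of 0.2 log2 units. In 1 library 200 of them were lowered by 2 log2 units, and 100% of these were recovered. So large a change makes that nearly certain, and differences near the cut of 1 log2 unit were not tried.

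The controls, the gene lists and the rules were chosen with earlier results of these data known. There were 36 lists of 1629 written entries, of which 1415 genes in 35 lists were measured, and mitochondrial-encoded genes are not analysed here. The pattern for ribosomal protein genes was corrected after a first run, because it had taken in kinase genes. 6 further lists (circadian clock, immediate early genes, presynaptic active zone, potassium channels, voltage-gated calcium channels, very large coding genes) were added after the values had been seen. Named genes were the 20 highest, the 3 highest and the most variable of each list, the 10 most and 5 least variable genes, the 10 lowest genes and ccdc103. Further members, such as the opsins, the clock genes and foxj1a, were named after their values had been seen.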

Additional observations from a re-analysis of the deposited data

Results flagged for a closer look

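With 4 libraries per gene, 1 library was marked where its gap to the nearest of the others took up more of the whole range than Dixon's critical value for 4 samples allows, which chance gives in about 1 of 20 groups. Over the 15353 genes of at least 5 CPM, 1367 (8.90%) were marked, of which 633 had clutch 1 as the low library and 460 had it as the high one. Each of the other 3 libraries was low in 37 to 58 genes and high in 28 to 53. Of the 166 named genes 16 were marked, all through clutch 1, and of the 35 lists 5 were. The part marked among the named genes was near the 8.90% of all genes. Some named genes had been chosen for a wide spread over these same 4 libraries.

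The low values of clutch 1 stood away from the other 3 controls in rho (9.95 log2 CPM), cmn (6.73), col9a1b (6.39), elnb, an elastin gene (3.32), syn2b (5.45), slc1a2b (8.41), rfx3 (3.55), camk2b (0.91), atp5fa1 (10.01) and atp5f1b (9.91). The high values of clutch 1 did so in tpm3, a slow tropomyosin gene (8.79 log2 CPM), scg3 (6.95), hbae3 (9.62), hbbe1.1 (9.17), fli1a, an endothelial transcription factor gene (5.92), and tpt1, a translation-associated gene (11.78). The gaps of tpt1 and fli1a were small in size, since the other 3 controls of tpt1 all stood at 11.69 and those of fli1a lay between 5.66 and 5.70 log2 CPM. At the level of tpt1 a value stands for a rank, so its mark is a change of rank.

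Among list shares, neuronal genes were low in clutch 1 (1.47%), nuclear oxidative phosphorylation genes were high in clutch 1 (1.35%), and the short list of swim bladder, thyroid and gill genes was high in clutch 1 (0.0104%). Liver and plasma protein genes were high in clutch 2 (2.48%) and ionocyte genes were low in clutch 3 (0.245%). Single genes weighed on 2 of these marks. The SD of the liver share was 0.120 with apoa1b and 0.050 without it. In the swim bladder, thyroid and gill list, anxa5b alone made up 66.2% of the sum. It had 6.22, 5.83, 5.73 and 5.80 log2 CPM.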

How the results depend on the processing

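No paired analysis was possible because the results come from no test and the controls have 1 library per clutch. Leaving out each control in turn gave 25.51% to 25.57% for the share of the 100 highest genes and 368 to 383 genes near the floor, against 357. The median SD was 0.116 to 0.202, with the lowest value without clutch 1, and the range in place of the SD was 0.424 log2 units. Median SDs of lists ranged over leave-one-out from 0.261 to 0.526 for lens and from 0.0654 to 0.132 for ribosomal proteins. The 576 genes with an SD of at least 0.5 became 202 without clutch 1 and 916 without clutch 4. All 140 list shares moved by less than 1 SD when 1 library was left out. With 4 libraries, leaving 1 out cannot shift the mean of a share by as much as the SD over all 4. The count of 140 therefore does not tell how far the shares depend on single libraries. Without its most abundant member the fast muscle list held 7.38%, the heart list 0.220% and the epidermis list 1.66%, and 29 of 35 lists moved by more than 1 SD. A floor of a mean under 1 log2 CPM gave 1859 genes, and under 0 in all 4 controls gave 108. The 326 genes lower in clutch 1 became 561 with no filter and 74 at 50 CPM (alternatives chosen after seeing the data), and 295 to 367 when 1 other control was left out. Division by coding length was not run, because no table of lengths was used here. Depth is unknown, so no value has a counting interval.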
